A study of Mus musculus with 2 samples.

Results

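The caveolin and cavin genes examined here were Cav1, Cav2, Cavin1, Cavin2, Cavin3, Ehd2 and Pacsin2, 7 genes of caveolae chosen by name. Of these, 6 had at least 1 probe set with a single gene symbol, and they held 15 of the 45037 probe sets and 6 of the 18193 genes measured. Pacsin2 was not analysed here, since none of the probe sets named here carried it. Mouse embryo fibroblasts (MEFs) were derived from day 12.5 embryos of Ebp1 knock out mice, which carry a retroviral gene trap in intron 2 of Pa2g4, the gene of Ebp1, and of wild type mice. Both cultures were grown in medium with 10% fetal bovine serum, and RNA was taken at passage 2 and hybridized to 1 array per genotype. The strain was kept on a mixed C57BL/6 and 129SvEvBrd background, and no treatment was given to either culture. No source used here gives the number of embryos behind each culture. There were no replicates, so signals and ratios carry neither an error nor a p-value, and differences between the genotypes cannot be told apart from those between 2 cultures. Members and lists were chosen with earlier results of these arrays known, so the values below are a description.

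Caveolae are small flask-shaped pits of the plasma membrane that are abundant in fibroblasts, endothelial cells, adipocytes and muscle cells. Caveolins are membrane proteins that oligomerise in the pit, and cavins form a coat on its cytoplasmic face. Caveolae flatten when the membrane is stretched, and they have been studied in lipid uptake and in signalling by growth factor receptors.

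The caveolins and Cavin2 had higher signals in Ebp1 knock out MEFs, while Cavin3 and the brightest probe set of Ehd2 had lower ones. Cav2 stood at 2.54 times and Cavin2 at 1.5 times its wild type signal, and 2 dimmer probe sets of Cavin2 stood at 2.72 and 2.78 times. Cav1 stood at 1.47 times and Cavin1 at 1.13 times. Cavin3 was at 78.2% of wild type, and the brightest probe set of Ehd2 at 77.7%, while 3 of its 4 other probe sets were higher in knock out MEFs. The promoters of the 3 genes with the largest positive log2 ratios, Cav2, Cavin2 and Cav1, are shown to give the sequence at which each of these transcripts starts. Each runs from 250 bases before to 50 bases after a transcript start of RefSeq, 5′ to 3′ on the strand of the gene, with build GRCm38.p6 and the plus strand in each case. Capitals mark matches, on either strand, to the GC box GGGCGG, the E2F core GCGGGAA, the CCAAT box CCAAT, the TATA box TATAAA, a sterol element TCACNCCAC and an AP-1 site TGANTCA.
Cav2, chr6:17280935-17281234: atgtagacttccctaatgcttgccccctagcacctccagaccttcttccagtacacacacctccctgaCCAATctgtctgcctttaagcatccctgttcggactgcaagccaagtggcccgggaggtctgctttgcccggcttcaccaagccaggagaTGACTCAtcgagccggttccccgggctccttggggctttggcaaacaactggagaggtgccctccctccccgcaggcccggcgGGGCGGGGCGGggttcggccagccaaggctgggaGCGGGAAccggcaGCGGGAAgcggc
Cavin2, chr1:51288876-51289175: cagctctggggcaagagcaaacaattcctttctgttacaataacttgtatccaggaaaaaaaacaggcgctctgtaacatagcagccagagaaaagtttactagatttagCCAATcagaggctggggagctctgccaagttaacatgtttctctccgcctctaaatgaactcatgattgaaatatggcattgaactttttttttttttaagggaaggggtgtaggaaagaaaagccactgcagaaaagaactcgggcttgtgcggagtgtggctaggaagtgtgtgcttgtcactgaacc
Cav1, chr6:17306085-17306384: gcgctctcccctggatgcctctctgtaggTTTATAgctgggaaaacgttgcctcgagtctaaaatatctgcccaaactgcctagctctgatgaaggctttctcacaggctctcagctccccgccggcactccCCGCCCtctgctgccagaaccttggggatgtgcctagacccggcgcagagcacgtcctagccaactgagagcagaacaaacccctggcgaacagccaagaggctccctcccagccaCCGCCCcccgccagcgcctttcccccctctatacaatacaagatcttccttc
The Cav2 window held 2 GC boxes, which overlap each other, 2 E2F cores, 1 CCAAT box and 1 AP-1 site. This Cav1 window held 2 GC boxes and 1 TATA box, while another start of Cav1 had 0 matches, and the window of Cavin2 held 1 CCAAT box. Over all 32851 promoter windows of this length, a GC box was found in 35.7%, a CCAAT box in 37.4%, a TATA box in 13.6%, an AP-1 site in 7.81%, an E2F core in 4.6% and the sterol element in 1.24%. The promoter table held 10 windows for 6 of the 7 genes, those of Cavin1 and Pacsin2 among them, and the E2F core was in the Cav2 window and in no other of these 10. None of the 10 held the sterol element. Such a match is a description of the letters and says nothing about whether a factor was bound.

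Array signals were compared per probe set, as MAS5 signals in linear intensity units that were scaled to a common target on each array. The median signal was 71.6 on the knock out and 66.5 on the wild type array. Signals under 100, which made up 57.1% and 57.9% of probe sets on these arrays, were treated as low. The brightest probe set of Pa2g4 was 1178 in knock out and 1835 in wild type MEFs (log2 ratio, here always knock out over wild type, -0.64), and all 5 of its probe sets were lower in knock out MEFs. The array signal was reduced and not lost, with 53.8% to 79.8% of the wild type signal left on the other probe sets. Where the probe sets lie relative to the trap was not examined here. By RT-PCR and Western blot the study found neither Ebp1 mRNA nor Ebp1 protein in knock out MEFs. Why the array still gave signal was not tested. On the knock out array 9 probe sets of spike-ins added at hybridization stood, as geometric mean, at 1.31 times their wild type signal. Their log2 ratios ran from 0.25 to 0.58, and scaling to their mean lowers every log2 ratio by 0.39.

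Cav1 encodes caveolin-1, the caveolin that caveolae of non-muscle cells need. Its single probe set, 1449145_a_at, had a signal of 6602 in knock out and 4483 in wild type MEFs, a log2 ratio of 0.56. The signal was thus higher in the knock out culture, by less than 2-fold. Of the 285 genes with a mean signal over 4000, 2 had a higher log2 ratio than Cav1, 1 of them Cavin2, and the middle 95% of these 285 lay between -0.27 and 0.44. After spike-in scaling the log2 ratio of Cav1 was 0.17.

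Cav2 encodes caveolin-2, which assembles with caveolin-1 and depends on it to leave the Golgi. Its brightest probe set, 1417327_at, had a signal of 1531 in knock out and 604 in wild type MEFs, a log2 ratio of 1.34. It was the only member over 2-fold apart on its brightest probe set. Among the 5014 genes that reached 500 on at least 1 array, 17 had a higher log2 ratio. The other probe set, 1425955_at, was low on both arrays, at 67.7 in knock out and 43.1 in wild type MEFs, so no fold is given for it. With spike-in scaling Cav2 was at 0.95, just short of 2-fold. The log2 ratio of Cav2 exceeded that of Cav1 by 0.78, a difference that does not change when an array is scaled by a single factor.

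Cavin1 encodes the cavin that is required for caveolae to form. Its brightest probe set, 1424130_a_at, was 3569.9 in knock out and 3148 in wild type MEFs (0.18), and 116 of 632 genes with a mean signal from 2000 to 4000 had a higher log2 ratio. The knock out signal was the higher one with the deposited scaling, median centring (0.08), quantile normalization and loess, and the lower one after spike-in scaling (-0.21). A dim probe set, 1421431_at, was 149.8 in knock out and 50.1 in wild type MEFs. It was at least 1.498-fold higher when the low signal is set to 100. The last probe set, 1453891_at, was near background at 12.2 in knock out and 12.1 in wild type MEFs. The probe sets of Cavin1 therefore gave unequal ratios, and only the brightest was over 100 on both arrays.

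Cavin2 encodes the cavin known for shaping the caveolar membrane, also named serum deprivation response protein. All 3 probe sets were over 500 on both arrays and all were higher in knock out MEFs. The brightest, 1416778_at, was 5226 in knock out and 3483 in wild type MEFs (0.59). The second, 1416779_at, which is annotated with the same source accession, was 3289 in knock out and 1209.8 in wild type MEFs (1.44). The dimmest, 1443832_s_at, was 2131 in knock out and 767 in wild type MEFs (1.47). The brightest probe set thus gave a smaller ratio than the other 2, which were both over 2-fold higher. None of the other genes with a mean signal over 4000 had a log2 ratio above the 0.59 of the brightest Cavin2 probe set. After spike-in scaling the 3 log2 ratios were 0.19, 1.05 and 1.08.

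Cavin3 encodes a cavin that binds protein kinase C delta and associates with caveolin-1. Its single probe set, 1423771_at, was 725 in knock out and 927 in wild type MEFs, a log2 ratio of -0.35. It was lower in knock out MEFs under each of the 5 scalings, from -0.75 with spike-ins to -0.32 with loess. Of the 2336 genes with a mean signal from 500 to 1000, 373 had a lower log2 ratio. The 3 cavin genes did not share 1 direction on their brightest probe sets, with the log2 ratio of Cavin2 above that of Cavin3 by 0.94 and above that of Cavin1 by 0.40.

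Ehd2 encodes a membrane-bound ATPase that sits at the neck of caveolae and holds them at the cell surface. Its 5 probe sets went both ways, so no direction is given for the gene. The brightest, 1435785_at, was 1238 in knock out and 1594 in wild type MEFs (-0.36). The next, 1424157_at, was 1320.0 in knock out and 1037 in wild type MEFs (0.35). The one after it, 1459823_at, was 546 in knock out and 518 in wild type MEFs (0.08). The brightest probe set was therefore the lower one in knock out MEFs, and the others that reached 500 were not. The probe set 1424158_at was 229 in knock out and 142 in wild type MEFs (0.69), and 1427729_at was low on both arrays. Probe sets on both sides of 0 were also found for 51.9% of the 3913 genes with at least 2 probe sets of 100 or more on both arrays. With the mean over its probe sets Ehd2 was at 0.05, and after spike-in scaling 4 of its 5 probe sets were lower in knock out MEFs. The probe sets of the members nearest to the limit of 100 were 1425955_at of Cav2 below it and 1424158_at of Ehd2 above it on both arrays, with 1421431_at of Cavin1 on either side.

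**Figure D1:**
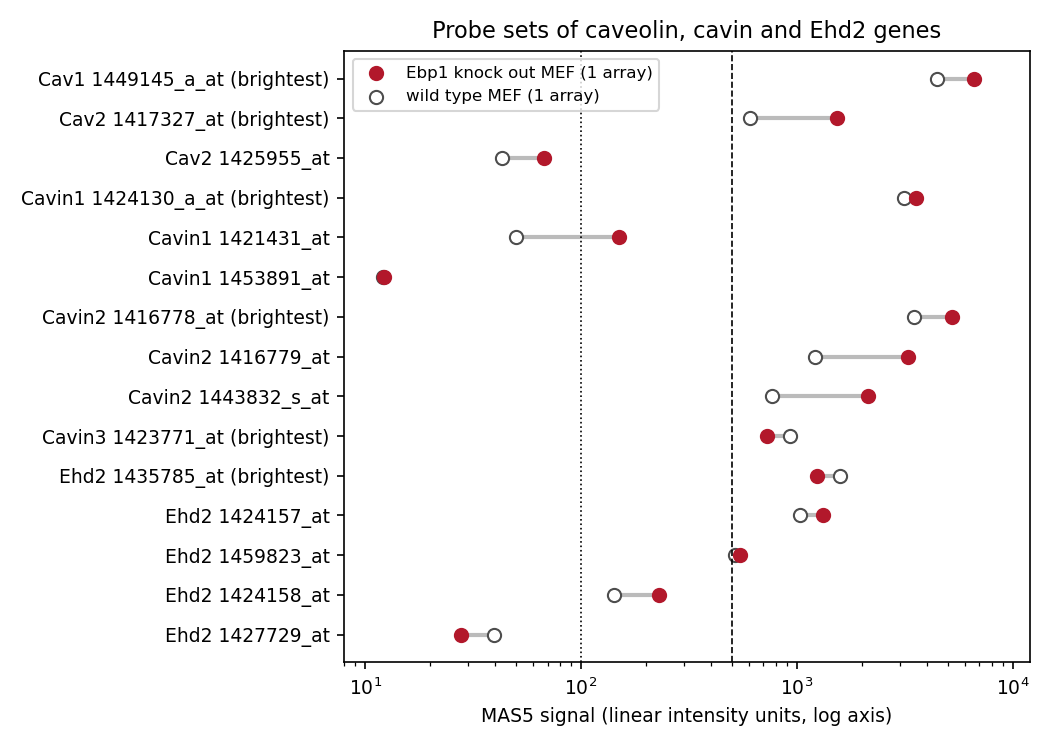
MAS5 signal of each of the 15 probe sets in Ebp1 knock out MEFs (filled) and wild type MEFs (open), 1 array each, on a logarithmic axis in intensity units, with lines at 100 and 500. The 3 probe sets of Cavin2 and the brightest of Cav1 and Cav2 lie higher in knock out MEFs, and those of Ehd2 lie in both directions.

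Over the 6 genes with a probe set, 4 were higher and 2 lower in knock out MEFs (3 and 3 after spike-in scaling) on the brightest probe set, where 42.2% of genes were higher, and all 6 reached 500. Over 2-fold apart was 1 of these 6, Cav2, where 1.81% of the 5014 genes were over 2-fold apart in either direction and 0.758% were higher. Over 1.5-fold apart were 2 of 6, Cav2 and Cavin2, where 8.1% of genes were. Cavin2 passed this limit by a margin of less than 0.01 in log2 and was below it after median centring, quantile normalization, loess and spike-in scaling, with Cavin3 and Ehd2 past it as lower after spike-in scaling. Of the 10 probe sets of the members that reached 500, 3 were over 2-fold higher and 0 were over 2-fold lower, where 1.64% of 7857 probe sets were over 2-fold higher. These were 1 of Cav2 and 2 of Cavin2. They stayed over 2-fold higher after median centring, quantile normalization and loess, and after spike-in scaling the 2 of Cavin2 did. Of 11 member probe sets with at least 100 on both arrays, 2 were lower in knock out MEFs, where 52.8% of 17865 such probe sets were, and 5 were lower after spike-in scaling. The median log2 ratio of the 6 members was 0.37, beside -0.05 over all genes that reached 500. After spike-in scaling these medians were -0.02 and -0.46. These counts rest on few genes that were chosen with the ratios known, and nothing is read from the shares.

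**Figure D2:**
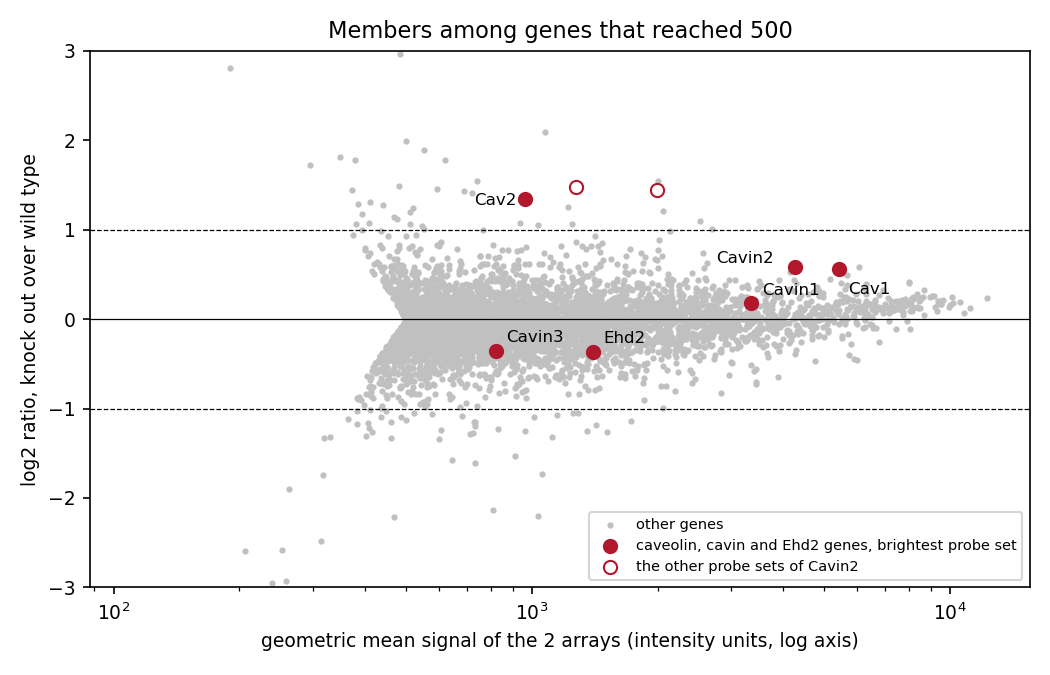
Log2 ratio, knock out over wild type, against the geometric mean signal of both arrays, for the brightest probe set of each of the 5014 genes that reached 500 (grey), the members (red) and the other probe sets of Cavin2 (open red). Dashed lines mark 2-fold. Cav2 and the 2 open symbols lie above the upper line, and 3 genes lie beyond the vertical axis.

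**Figure D3:**
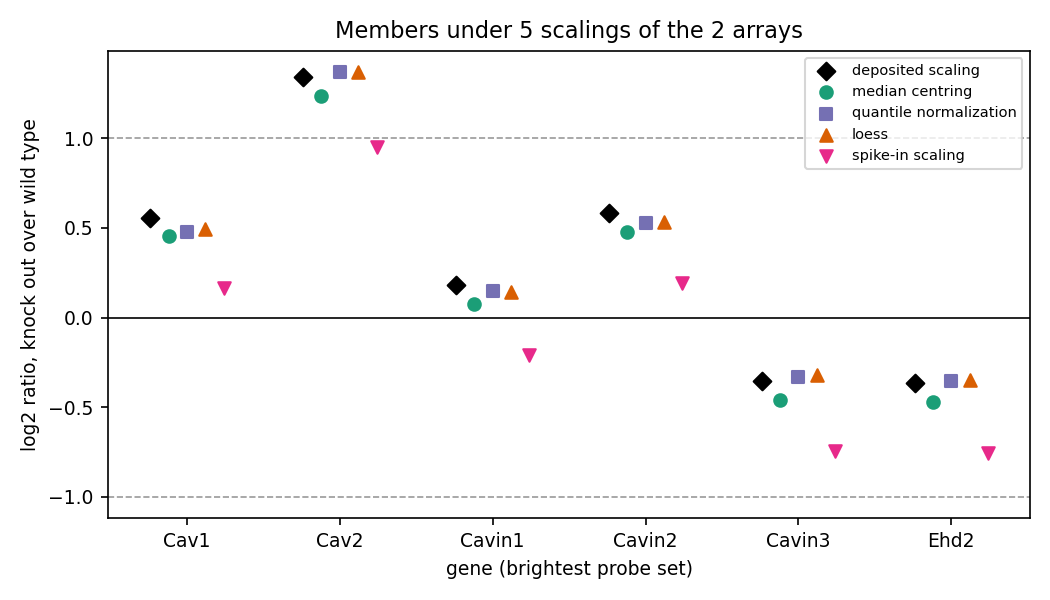
Log2 ratio of the brightest probe set of each member under the deposited scaling and 4 others. Cav1, Cav2 and Cavin2 lie above 0 and Cavin3 and Ehd2 below 0 under all 5, while Cavin1 falls to -0.21 with spike-ins.

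Cav2 and Cav1 are adjacent on chromosome 6, where Cav2 precedes Cav1. Their neighbours, named after their values were seen, went both ways. Tes, which encodes a focal adhesion protein, was 1449 in knock out and 1095 in wild type MEFs (0.40). Met, the gene of the hepatocyte growth factor receptor on the other side of Cav1, stayed under 500 at 388 in knock out and 231 in wild type MEFs (0.75). St7, further on that side, also stayed under 500, at 398 in knock out and 227 in wild type MEFs (0.81). Capza2, which encodes a subunit of an actin capping protein, was 2512 in knock out and 2851 in wild type MEFs (-0.18). Mdfic, on the side of Cav2 away from Cav1, was 1033 in knock out and 1334 in wild type MEFs (-0.37). Capza2 and Mdfic were the lower ones of these named neighbours. Over the 5 genes with a probe set on either side of Cav1, 3 reached 500 and Cav2 was the only one over 1.5-fold apart. Over the 5 on either side of Cav2, 4 reached 500 and 0 were over 1.5-fold apart. Cavin2 on chromosome 1 had 6 such neighbours that reached 500. Of these 1 was over 1.5-fold apart, Slc40a1, which encodes the iron exporter ferroportin, at 309 in knock out and 687 in wild type MEFs (-1.15). The 6 members with a probe set lie on chromosomes 1, 6, 7 and 11, and among them only the pair of caveolins are neighbours.

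Among the paralogs, Cav3 and Cavin4 are known from muscle caveolae, and neither reached 500. Cav3 was under 100 on both arrays, at 71.0 in knock out and 26.4 in wild type MEFs, and Cavin4 was 121.7 in knock out and 48.6 in wild type MEFs. Of 7 paralogs 2 reached 500, and neither was over 1.5-fold apart with the deposited scaling. Ehd1, which encodes an ATPase of endosome recycling, was 1303 in knock out and 1018 in wild type MEFs (0.36), with 1 of its 4 probe sets in the other direction, and Ehd4 was 529 in knock out and 623 in wild type MEFs (-0.24).

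None of the 5 genes of caveola and caveolin partners that reached 500 was over 1.5-fold apart, with a median of 0.07 on the log2 scale. Flna, the gene of the actin crosslinker filamin A, which binds caveolin-1, was 5531 in knock out and 5260.0 in wild type MEFs (0.07). Arf6, which encodes a small GTPase of endocytosis, was 2411 in knock out and 2684 in wild type MEFs (-0.16), while another of its probe sets that reached 500 was 1023 in knock out and 773 in wild type MEFs (0.41). Flotillins and other scaffolds of lipid rafts had a median of -0.10, with 2 of 7 higher and 5 lower. Anxa2, the gene of annexin A2, was 7272 in knock out and 6661 in wild type MEFs (0.13), and S100a10, which encodes its partner, was 4969 in knock out and 4810.1 in wild type MEFs (0.05). Of the 10 genes of the clathrin coat and its AP-2 adaptor that reached 500, 2 were higher and 8 lower, with a median of -0.09. Cltc, the gene of the clathrin heavy chain, was 4876 in knock out and 4699.9 in wild type MEFs (0.05), and Clta, that of a light chain, was 4191 in knock out and 4390 in wild type MEFs (-0.07). Another bright probe set of Clta went the other way, at 2133 in knock out and 1258 in wild type MEFs (0.76). After median centring Anxa2 alone of these raft and clathrin genes was higher. After spike-in scaling each was lower, where the median over all genes that reached 500 was -0.46. On their brightest probe sets none of the raft and clathrin genes that reached 500 was over 1.5-fold apart with the deposited scaling, quantile normalization or loess. Ap2a2, which encodes a subunit of AP-2, was over 1.5-fold lower after median centring. After spike-in scaling, where 12 clathrin genes reached 500, 2 raft and 4 clathrin genes were. Among these 4 was Hip1, which stayed under 500 with the deposited scaling, at 293 in knock out and 470 in wild type MEFs (-0.68). The differences between these lists and the members were not tested.

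**Figure D4:**
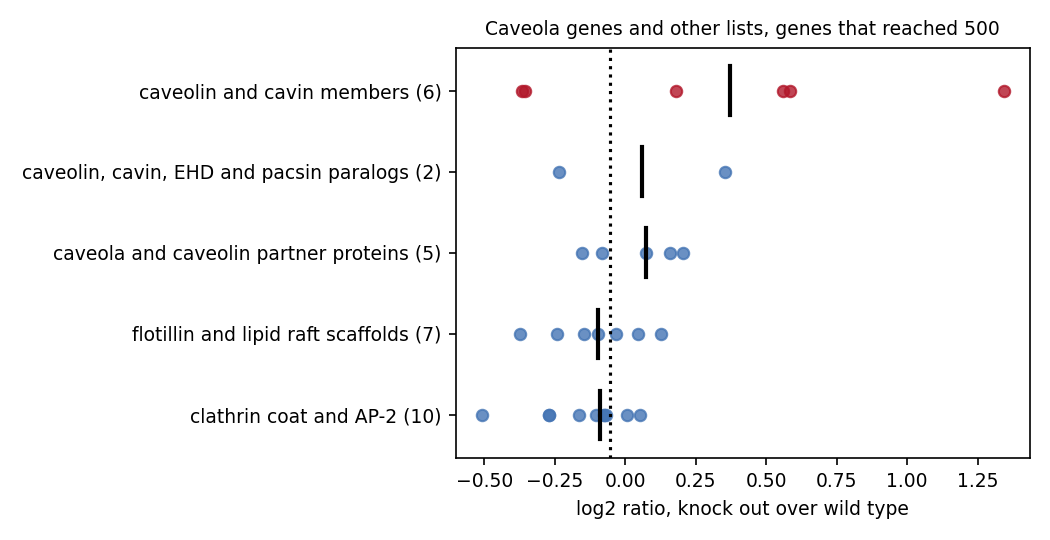
Log2 ratios of the genes that reached 500 in the caveolin and cavin group (red) and in 4 other lists (blue), with their number in parentheses, the median of each as a bar and the median of all genes as a dotted line. The members spread from -0.36 to 1.34, while the 10 clathrin coat genes lie between -0.51 and 0.05.

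Markers of fibroblasts and of endothelial, adipocyte, muscle, epithelial and blood cells were examined beside these values. All 8 fibroblast markers reached 500, with a summed signal of 56351 in knock out and 52851 in wild type MEFs. Of these 5 were higher and 3 lower with the deposited scaling, and all 8 were lower after spike-in scaling, where the sums were 49194 in knock out and 60540 in wild type MEFs. Under that scaling the median log2 ratio over all genes that reached 500 was -0.46. Vim, the gene of vimentin, was 11051 in knock out and 9308 in wild type MEFs (0.25), Pdgfrb was 1952 in knock out and 3098 in wild type MEFs (-0.67), and Thy1 was 2784 in knock out and 4173 in wild type MEFs (-0.58). Endothelial markers summed to 321 in knock out and 306 in wild type MEFs, and 6 of 7 were under 100 on both arrays, with Pecam1 at 9.97 in knock out and 12.2 in wild type MEFs. The remaining one, Kdr, was 156.0 in knock out and 100.7 in wild type MEFs (0.63). Of 6 adipocyte markers 4 were under 100 on both arrays, among them Adipoq, while Fabp4, which encodes a fatty acid binding protein, was 981 in knock out and 359 in wild type MEFs (1.45). Lpl, the gene of lipoprotein lipase, was 354 in knock out and 590.1 in wild type MEFs (-0.74). The smooth muscle markers summed to 20298 in knock out and 17010.0 in wild type MEFs, and all 4 that reached 500 were higher (3 after median centring and Cnn1 alone after spike-in scaling), with Cnn1, which encodes calponin, at 1977 in knock out and 1092 in wild type MEFs (0.86). Of 6 skeletal and cardiac muscle markers 4 were under 100 on both arrays, and their sum was 1120.4 in knock out and 852 in wild type MEFs. Epithelial markers summed to 1759 in knock out and 436 in wild type MEFs, of which the single probe set of Epcam with signal made up 1350.5 in knock out and 174 in wild type MEFs, and the 4 blood markers summed to 645 in knock out and 635 in wild type MEFs. In bulk RNA a different number of cells of a type and a different amount of RNA per cell cannot be told apart, and the part of these cells in the caveolin and cavin signals was not tested.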

How the data were processed

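RNA from MEFs of 1 Ebp1 knock out and 1 wild type culture was hybridized to 1 Affymetrix array each, with probe identifiers found in a mouse annotation. The deposited values are linear signal intensity per probe set, calculated by the authors in MAS5 with a scaling of each array to the same target. After removal of 64 control probe sets 45037 remained, of which 34945 had 1 gene symbol, 932 several and 9160 none here, and Entrez identifiers of 34741 were found in the RefSeq annotation of GRCm38.p6, from which symbols, neighbours and promoters were taken. No source used here names the build behind the probe sets, so no gene coordinates are printed for them.

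The ratio of knock out over wild type signal was given as log2, with the thresholds of the study's methods (500 units, 2-fold) and a further one of 1.5-fold. For each gene the brightest probe set (by mean log2 signal) was used, and the other probe sets are given for the members and, where they differ, for some of the other genes named. Signals under 100 counted as low. No test was run, since there was no spread between replicates, and the number of arrays limits the precision. Members, lists and thresholds were chosen with earlier results of these data known. Genes named are all members, Pa2g4, and, of each list, those over 1.5-fold apart that reached 500 and the 2 brightest others. Not every gene this rule covers is printed, and others named were chosen after their values were seen. The steps were tested on simulated data. Alternatives were median centring, quantile normalization, loess (fraction 0.3), spike-in scaling, low signals raised to 100, addition of 50, other minimum signals and other choices of probe set. Software was statsmodels 0.14.6, matplotlib 3.10.9, pandas 2.3.3 and numpy 2.4.6 in Python 3.11.15.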

Additional observations from a re-analysis of the deposited data

How the results depend on the processing

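Of 48 log2 ratios of single members under the alternatives 2 had another sign, Cavin1 with spike-in scaling (-0.21) and Ehd2 with the mean over its probe sets (0.05). Of the 6 members, 1 was over 2-fold apart, and 0 were with spike-in scaling, where Cav2 was at 0.95. With averaged probe sets the 1 was Cavin2 (1.17) and not Cav2 (0.997). That mean of Cav2 includes 1425955_at, low on both arrays. Over 1.5-fold were 2, and 1 with median centring, 1 with quantile normalization, 1 with loess and 1 with 50 added, in each case without Cavin2. With spike-in scaling there were 3, Cav2 higher and Cavin3 (-0.75) and Ehd2 (-0.76) lower, and with averaged probe sets there were 3, among them Cavin1 (0.59). That mean of Cavin1 includes 1421431_at, low on the wild type array, and 1453891_at, low on both. Cav1 had its lowest log2 ratio, 0.17, with spike-in scaling, which takes 0.39 off every ratio. With spike-in scaling 5 of 11 member probe sets were lower in knock out MEFs, and 2 were with the deposited scaling. The member median of 0.37 was -0.02 with spike-in scaling, 0.26 with median centring and 0.58 when the probe sets of a gene were averaged. That of the paralogs was below 0 with median centring (-0.05), spike-ins (-0.33) and the mean over probe sets (-0.02). That of the caveola partners was below 0 with spike-ins (-0.32) and within 0.04 of 0 with the other settings that turned it. For changes other than the uniform shift that a scaling by 1 factor gives, the cause was not tested. Low signal limits 3 of the 15 probe sets, which were under 100 on both arrays, and also 1421431_at of Cavin1, which was under 100 on the wild type array. No paired analysis was possible because each genotype has a single array.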
